A study of Mus musculus with 6 samples.

Results

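The genes of melanin synthesis and of the melanosome were examined in endothelial cells sorted from mouse melanomas. The 10 genes were chosen by symbol (Tyr, Tyrp1, Dct, Pmel, Mlana, Slc45a2, Slc24a5, Oca2, Gpr143 and Mc1r), all 10 were found among the 24421 gene symbols counted, and all 10 passed the filter on low counts. The samples were cells sorted by flow cytometry from B16F0 tumours, a transplantable melanoma line, grown under the skin for 17 days in mice of strain C57BL/6. One group had received 15C4, an antibody that blocks the secreted glycoprotein LRG1, and the control group IgG, each at 50 mg/kg every 3 days, with 3 libraries per group. All 6 samples therefore carried the same tumour and an injected antibody, and an untreated group was not analysed here. The libraries of a group are labelled as separate samples, without a word on whether each came from its own animal. Every p-value below therefore covers only the spread from library to library. Which markers gated the sort is not stated in the labels.

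Melanin is made inside melanosomes, lysosome-related organelles of melanocytes, by 3 related enzymes: tyrosinase (Tyr), tyrosinase-related protein 1 (Tyrp1) and dopachrome tautomerase (Dct). PMEL forms the fibrils on which melanin is laid down, MLANA (MART-1) is a small melanosomal membrane protein, and the transporters and channels SLC45A2, SLC24A5 and OCA2 act on the ion balance and pH of the organelle. GPR143 is a receptor of the melanosome membrane, and MC1R is the receptor for melanocyte-stimulating hormone at the cell surface. These genes are known chiefly from pigment cells. Most of them are known targets of the transcription factor MITF, which binds E-box sequences such as CATGTG.

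Start-site sequences (RefSeq, GRCm38.p6) were matched by symbol for 6 of the 10 genes, namely Tyr, Tyrp1, Dct, Slc24a5, Oca2 and Mc1r. No sequence was printed for Pmel, Mlana, Slc45a2 and Gpr143. Each sequence holds the 250 bases before the RefSeq start site and the first 50 bases from it on, 5′ to 3′ on the strand of the gene. Those of the 3 enzymes are shown because they share a run of letters around one E-box. Capitals mark CATGTG, or CACATG where the match is on the other strand. Tyr lies at chr7:87493463-87493762 (minus strand), Tyrp1 at chr4:80833963-80834262 (plus strand) and Dct at chr14:118052197-118052496 (minus strand).
Tyr: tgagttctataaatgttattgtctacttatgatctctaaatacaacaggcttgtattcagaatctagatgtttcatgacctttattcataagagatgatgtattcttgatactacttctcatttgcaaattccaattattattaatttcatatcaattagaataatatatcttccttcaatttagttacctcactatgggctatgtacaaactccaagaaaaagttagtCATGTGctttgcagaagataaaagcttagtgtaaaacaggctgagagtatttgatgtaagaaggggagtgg
Tyrp1: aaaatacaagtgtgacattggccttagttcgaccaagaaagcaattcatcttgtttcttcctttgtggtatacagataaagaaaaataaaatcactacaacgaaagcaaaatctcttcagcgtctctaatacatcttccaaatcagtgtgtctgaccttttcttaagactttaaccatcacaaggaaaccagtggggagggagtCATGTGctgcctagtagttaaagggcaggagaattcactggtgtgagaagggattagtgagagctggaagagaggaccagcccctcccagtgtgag
Dct: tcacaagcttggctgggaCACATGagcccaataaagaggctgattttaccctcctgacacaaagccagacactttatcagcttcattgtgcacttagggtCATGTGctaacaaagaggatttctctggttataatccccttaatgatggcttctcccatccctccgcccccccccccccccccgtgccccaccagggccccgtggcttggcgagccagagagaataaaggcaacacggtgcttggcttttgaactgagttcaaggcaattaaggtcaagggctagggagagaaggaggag

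The longest run shared by the Tyr and Tyrp1 sequences was AGTCATGTGCT, 11 letters long, which began 24 bases before the start site of Tyr and 49 bases before that of Tyrp1. All 3 enzyme genes shared GTCATGTGCT, 10 letters of the same run, which began 152 bases before the start site of Dct. On either strand, the longer run occurred in 7 of the 32851 mouse start-site sequences of the same length (0.0213%) and the shorter one in 61 (0.186%). Both runs were chosen from the enzyme sequences, so their presence there was set in advance and the shares are no test. The 7 and the 61 take in the enzyme genes themselves, and the 61 also repeated start sites of some genes. CATGTG alone was found on either strand in 6 of the 6 pigment gene sequences and in 14.2% of all such sequences. The related E-box CACGTG was in 0 of the 6 and in 7.15% of all. ACAAAG, a match to the core bound by SOX proteins, was in 3 of the 6 (Tyrp1, Dct and Oca2) and in 18.7% of all. CATGTG lies within both longer runs, so these counts overlap, and a match of letters is a description and not a binding site.

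The other 3 genes held CATGTG in a different setting, shown here with 17 bases on each side. In Slc24a5 (chr2:125068097-125068136, plus strand) it was on the opposite strand, beginning 13 bases before the start site. In Oca2 (chr7:56239556-56239595, plus strand) it was on the opposite strand, beginning 186 bases before the start site. Mc1r (chr8:123407014-123407053, plus strand) held 2 matches, of which the one on the gene's strand is in capitals and began 51 bases before the start site.
Slc24a5: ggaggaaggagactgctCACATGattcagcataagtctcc
Oca2: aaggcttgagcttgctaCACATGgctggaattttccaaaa
Mc1r: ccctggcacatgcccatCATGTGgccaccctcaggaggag

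Total counts per library ranged from 5175600 to 19572202, and a library is named by its group and number (15C4 1 to 3, IgG 1 to 3). 15C4 3 stood apart: the first principal component (45.7% of the variance) set it off from the other 5, and 1537 of the 11144 genes tested had no count in it, against 31 to 507 elsewhere. IgG 3 held the fewest endothelial transcripts. Its 18 pan-endothelial markers summed to 199 CPM (counts-per-million, of all counts in the library), against 1444 to 3040 CPM in the other 5, with Cdh5 (VE-cadherin) at 46.3 CPM and Pecam1 at 8.91 CPM. Markers of other cell types summed to less than the pigment genes in every library. A list is said to be led by the gene with the highest mean CPM over all libraries. T and NK cell markers reached 566 CPM in IgG 1. They were led by Ccl5, at 124 CPM in IgG 1 and at its highest, 214 CPM, in 15C4 1. Lymphatic markers reached 1168 CPM in IgG 2, led by Mmrn1. Fibroblast markers, led by Lum, reached 153 CPM in 15C4 3. Macrophage markers, led by Fcer1g, reached 120 CPM in IgG 1. Pericyte markers, led by Kcnj8, were at most 43.5 CPM, keratinocyte markers, led by Krt10, at most 4.46 CPM, with 5 of 6 at 0 in every library, and erythroid and platelet markers, led by Itga2b, at most 1.74 CPM. Schwann cell markers, glia of the same neural crest origin as melanocytes, summed to 118 to 438 CPM, with 2 of 6 at 0 in every library. Much of the sum was Cdh19, which led the list, from 110 of 275 CPM in 15C4 1 to 162 of 183 CPM in 15C4 2.

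The 10 pigment genes summed to 26517, 23071 and 27719 CPM in 15C4 1, 2 and 3 and to 27929, 26465 and 23341 CPM in IgG 1, 2 and 3. The groups overlapped, and the highest library was 1.21 times the lowest. The mean sum was 25769 ± 2413 CPM for 15C4 and 25911 ± 2344 CPM for IgG (SD, n = 3 per group). A two-sided exact permutation test gave p = 0.8, where 0.1 is the smallest value it allows for 3 libraries against 3. The difference, 15C4 minus IgG, was -142 CPM, and it turned to 1560 with TMM scaling and lay between -1428 and 1207 with any 1 library left out. The 10 genes held between 2.31% and 2.79% of all counts in every library of a sort labelled endothelial. In bulk samples, fewer cells of a type and less RNA per cell cannot be told apart. The source of these transcripts was not tested.

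**Figure D1:**
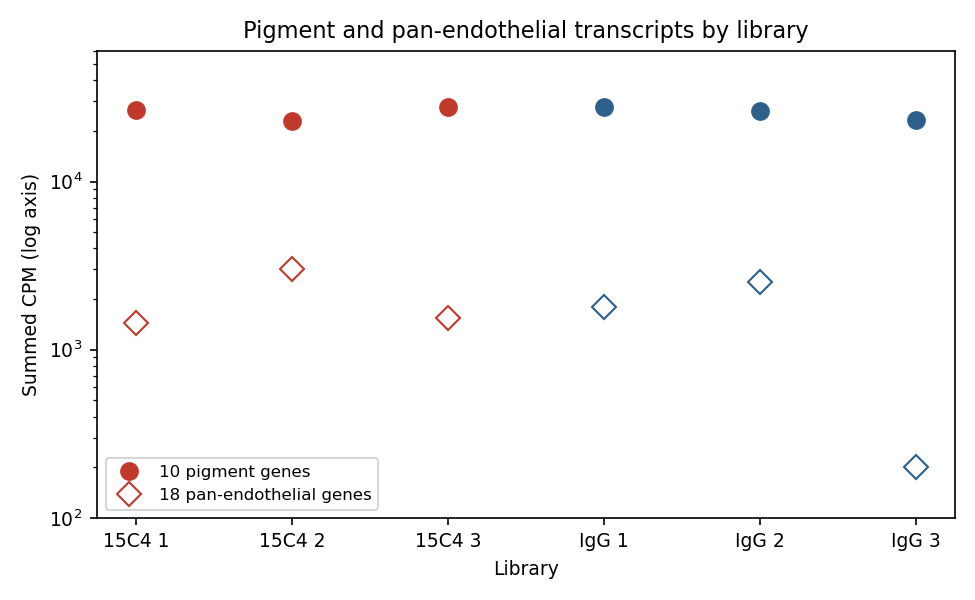
Summed CPM (log axis) of the 10 pigment genes (filled circles) and 18 pan-endothelial genes (open diamonds) in each library, 15C4 in red and IgG in blue. The pigment sum stayed between 23071 and 27929 CPM while the pan-endothelial sum lay at 199 CPM in IgG 3.

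The pigment sum varied less than the endothelial one. It was 7.59 to 18.4 times the pan-endothelial sum in the 15C4 libraries, and 15.6, 10.4 and 117 times in IgG 1, 2 and 3. The 2 groups of ratios overlapped (exact permutation test, two-sided, p = 0.6). The library with the fewest endothelial transcripts, IgG 3, had the second lowest pigment sum.

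Levels of different genes were compared per length, as TPM (transcripts-per-million) over the merged exons of GENCODE M21 (GRCm38). The enzymes of the later steps stood at the top and tyrosinase, the first enzyme, far below them. Averaged over 6 libraries, Tyrp1 was at 9318 TPM, Dct at 7546, Mlana at 3995, Pmel at 2507, Slc45a2 at 736, Slc24a5 at 547, Tyr at 408, Oca2 at 187, Mc1r at 145 and Gpr143 at 97.1. Among all genes with a length, Tyrp1 ranked between 3 and 7 and Dct between 2 and 11 in each library, Mlana between 10 and 23 and Pmel between 25 and 59. The ranges of neighbours in this order did not overlap for Dct over Mlana, Mlana over Pmel and Pmel over Slc45a2. Tyrp1 was above Dct in 5 of 6 libraries, the exception being IgG 1. The ranges of Slc45a2, Slc24a5 and Tyr overlapped, as did those of Oca2, Mc1r and Gpr143. Tyr was above Oca2 in 6 of 6 libraries although their ranges overlapped. These levels depend on the length used, which was 7108 bases of merged exons for Tyr and 5895 for Dct.

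**Figure D2:**
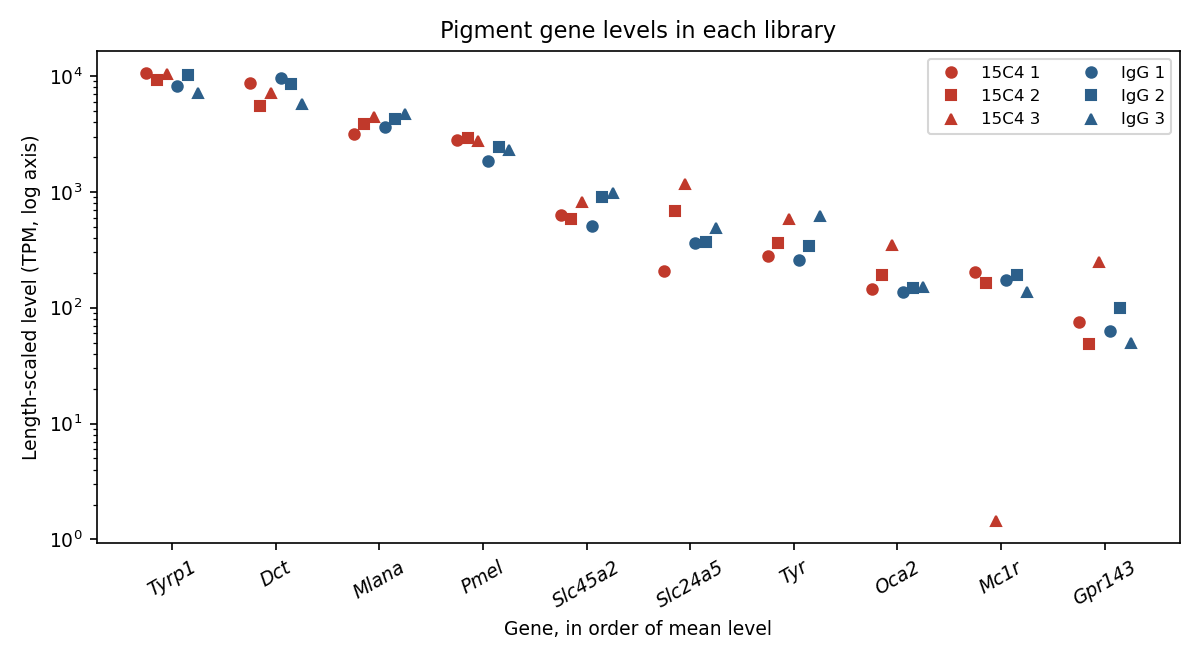
Length-scaled level (TPM, log axis) of each gene in each library, in order of mean level, 15C4 in red and IgG in blue, with a marker shape per library number. Tyrp1 and Dct lie at 5563 TPM or more in every library, and Mc1r in 15C4 3 lies at 1.45 TPM, far below its other 5 values.

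Of the enzymes, Dct (chromosome 14, 118012790 to 118052244, 9 merged exons), which converts dopachrome to a carboxylated indole, was at 14005, 9795 and 12480 CPM in the 15C4 libraries and at 16944, 13743 and 10702 CPM in the IgG libraries. Tyrp1 (chromosome 4, 80834123 to 80851719), which acts after Dct in eumelanin synthesis, was at 8243, 7882 and 8675 CPM in 15C4 and at 6942, 7920 and 6369 CPM in IgG. Both genes overlapped between the groups, Tyrp1 only through IgG 2, which lay just above 15C4 2. Tyr (chromosome 7, 87424771 to 87493512), the rate-limiting enzyme, was at 542, 776 and 1222 CPM in 15C4 and at 548, 663 and 1392 CPM in IgG. Its highest value in each group was in the third library and its lowest in the first, and the groups overlapped.

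None of the 3 enzymes passed the test between treatments. The fitted log2 fold change, 15C4 over IgG, was 0.09 for Tyr (SE 0.48), 0.32 for Tyrp1 (SE 0.26) and -0.10 for Dct (SE 0.29), each with an adjusted p of 1.00 (edgeR quasi-likelihood test). The 95% intervals ran from 0.496 to 2.28-fold for Tyr, 0.826 to 1.89-fold for Tyrp1 and 0.585 to 1.48-fold for Dct. The sign for Tyr turned without 15C4 3 (-0.36), IgG 1 (-0.16) or IgG 2 (-0.087) and with library totals alone as the scale (-0.035), and that for Dct turned without 15C4 2 (0.033) or IgG 1 (0.078).

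The structural genes of the organelle were among the steadiest. Pmel (chromosome 10, 128704195 to 128720238), which encodes the fibril protein, was at 1761, 1985 and 1878 CPM in the 15C4 libraries and at 1267, 1517 and 1667 CPM in the IgG libraries. All 3 15C4 values lay above all 3 IgG values. Over all tested genes the groups failed to overlap in 9.52% (either direction), and among the 10 pigment genes Pmel was the 1 such gene, a share near that background. Split by direction, 1 of 10 had all 15C4 libraries above (2.88% of all tested genes) and 0 of 10 had all below (6.64%). Its log2 fold change was 0.43 (SE 0.27, edgeR adjusted p = 1.00), a 95% interval of 0.876 to 2.08-fold. Mlana (chromosome 19, 29697824 to 29708634) was at 912, 1209 and 1379 CPM in 15C4 and at 1139, 1239 and 1563 CPM in IgG. The groups overlapped, with a log2 fold change of -0.06 (SE 0.32, edgeR adjusted p = 1.00), which turned to 0.13 without 15C4 1 and 0.11 without IgG 3. Pmel shares 139 exonic bases with Cdk2 and Dgka on the opposite strand, and the strand setting behind the counts is unknown here. Cdk2 lay between 305 and 787 CPM, with its highest value in 15C4 1, and Dgka at no more than 16.3 CPM.

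The 3 transporters varied more. Slc45a2 (chromosome 15, 11000721 to 11029233) was at 514, 522 and 724 CPM in 15C4 and at 448, 740 and 910 CPM in IgG. Slc24a5 (chromosome 2, 125068124 to 125088677), a cation exchanger, was at 134, 471 and 808 CPM in 15C4 and at 253, 234 and 361 CPM in IgG. The 15C4 libraries of Slc24a5 enclosed all the IgG values, with the lowest in 15C4 1 and the highest in 15C4 3. Oca2 (chromosome 7, 56239760 to 56536518), which encodes the P protein of the melanosome membrane, was at 159, 226 and 405 CPM in 15C4 and at 162, 161 and 188 CPM in IgG. Here 15C4 2 and 15C4 3 lay above all IgG libraries and 15C4 1 below them.

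Fitted log2 fold changes were -0.15 (SE 0.36) for Slc45a2, 0.89 (SE 0.61) for Slc24a5 and 0.75 (SE 0.44) for Oca2, each with an edgeR adjusted p of 1.00. Without 15C4 3 they were -0.40, 0.17 and 0.22, and without IgG 3 that of Slc45a2 was 0.12. Slc24a5 shares 921 exonic bases with Myef2 on the opposite strand, so reads there cannot be assigned without strand. Myef2 itself lay between 102 and 182 CPM, with its highest value in 15C4 1, where Slc24a5 was lowest.

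Both receptors stood apart in 1 library, 15C4 3. Mc1r (chromosome 8, 123407107 to 123410744, a single exon) was at 205 and 176 CPM in 15C4 1 and 2 and at 188, 192 and 157 CPM in IgG 1, 2 and 3, but at 1.56 CPM in 15C4 3. That value rests on 10 counts (95% exact Poisson interval 0.750 to 2.88 CPM, counting error only), against 974 to 3449 counts elsewhere. The other 5 libraries were 100 to 131 times higher than 15C4 3. The smallest lower bound of these ratios was 54.4 (95% counting interval), so the gap was far wider than counting error.

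Gpr143 (X chromosome, 152781921 to 152808646) went the other way in the same library. It was at 41.1, 28.8 and 146 CPM in 15C4 and at 37.1, 54.1 and 31.4 CPM in IgG. The 936 counts in 15C4 3 put it at 3.95 times the median of the other 5 libraries. The log2 fold change was 0.97 (SE 0.71) for Gpr143 and -0.46 (SE 1.09) for Mc1r, each with an edgeR adjusted p of 1.00. Without 15C4 3 both signs turned, to -0.19 for Gpr143 and 0.13 for Mc1r.

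**Figure D3:**
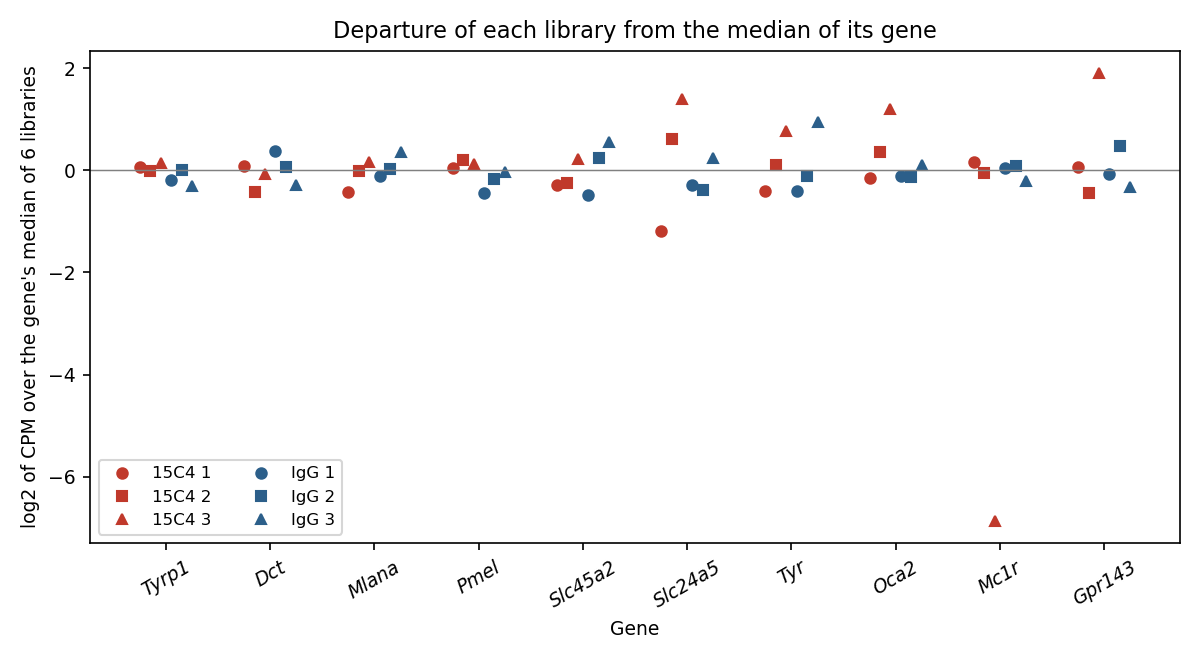
log2 of each library's CPM over the median of its gene in 6 libraries, 15C4 in red and IgG in blue, with a marker shape per library number. In 15C4 3, Mc1r (1.56 CPM) lies far below and Gpr143 (146 CPM), Slc24a5 (808 CPM) and Oca2 (405 CPM) above the other libraries.

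15C4 3 thus held the highest value of 4 genes (Tyrp1, Slc24a5, Oca2 and Gpr143) and the lowest of 1 (Mc1r). IgG 3 held the highest of 3 (Tyr, Mlana and Slc45a2) and 15C4 1 the lowest of 4 (Tyr, Mlana, Slc24a5 and Oca2). Against the median of the other 5 libraries, Slc24a5 was 3.20-fold, Oca2 2.49-fold and Tyr 1.84-fold in 15C4 3, while Dct was 0.908-fold. Among genes with a median of at least 50 CPM in the other 5 libraries, 8.56% were at least 2-fold above it in 15C4 3. A further 23.6% were at least 2-fold below. In the other libraries these shares were 1.76% to 5.65% above and 3.50% to 12.6% below. Of the 9 pigment genes that met this limit for 15C4 3, 2 were above and 1 below by this measure. Gpr143 did not meet it. A value as low as that of Mc1r was rarer. Of 2640 genes at 50 CPM or more in each of the other 5 libraries, 16 were under 2 CPM in 15C4 3, Mc1r among them. The same count was 1 for IgG 2 and 0 for the other 4 libraries. The limit of 2 CPM lies just above the value of Mc1r, so its place among the 16 is no test.

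The genes around Mc1r, looked up after its value was seen, departed far less in 15C4 3, and not all were lower there. Within 100 kb and with a mean of at least 10 CPM, Tcf25, which ends upstream of Mc1r, was at 95.3 CPM in 15C4 3 against 167 to 203 CPM elsewhere. Tubb3, which begins downstream of it on the same strand, was at 11.3 CPM against 45.2 to 92.0 CPM, Afg3l1 at 15.0 CPM against 19.7 to 32.3 CPM, and Def8 at 17.4 CPM against 1.97 to 24.7 CPM. Def8 was thus at 1.43 times the median of its other 5 values, and the rest of the 4 lay below all of theirs. Mc1r was the only one of the 5 genes near 0.

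The mix of pigment transcripts was next compared as each gene's share of their summed CPM, which no scaling of the libraries can change. Dct and Tyrp1 together made up 73.1% to 85.5% of the sum. Tyrp1 made up 31.1%, 34.2% and 31.3% of it in 15C4 1, 2 and 3 and 24.9%, 29.9% and 27.3% in IgG 1, 2 and 3, so that its groups did not overlap. The means were 32.2% ± 1.72 and 27.4% ± 2.54 (SD, n = 3 per group), with an exact permutation p of 0.1, the smallest possible, and an adjusted p of 0.8 over the 10 genes. The shares of the other 9 genes overlapped. This count of 1 of 10 stands beside 9.28% of all tested genes, taken over the same pigment sum. It was 4 without 15C4 1, beside 23.6% of tested genes, and 2 without 15C4 3, IgG 1 or IgG 3, beside 20.4%, 16.1% and 16.7%. Dct made up 46.8% ± 5.39 in 15C4 and 52.8% ± 7.45 in IgG (exact permutation p = 0.4). IgG 1 had the largest Dct share, 60.7%, and the smallest Tyrp1 and Pmel shares.

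Ratios within a library were taken on the TPM scale for 6 pairs of genes with related roles. Dct over Tyrp1 was 0.815, 0.596 and 0.690 in 15C4 and 1.17, 0.832 and 0.806 in IgG (two-sided exact permutation p = 0.2, adjusted 0.6 over the 6). Pmel over Mlana was 0.890, 0.757 and 0.628 in 15C4 and 0.513, 0.565 and 0.492 in IgG. These groups did not overlap, and the exact permutation p was 0.1, the smallest possible (adjusted 0.6). It was the only such pair of the 6, and no share over pairs of other genes is given here. Dct over Tyr ran from 9.27 in IgG 3 to 37.3 in IgG 1, with 15C4 values of 31.1, 15.2 and 12.3 within that span (exact permutation p = 0.7). The groups also overlapped for Tyrp1 over Tyr, Slc45a2 over Slc24a5 and Gpr143 over Mc1r (exact permutation p = 0.8, 0.6 and 0.9). Gpr143 over Mc1r was 171 in 15C4 3 and 0.298 to 0.513 elsewhere.

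The spread of the 10 genes over the 6 libraries ranged widely. The coefficient of variation of CPM was 11.2% for Tyrp1, 15.4% for Pmel, 17.8% for Mlana, 19.8% for Dct and 27.5% for Slc45a2, and 42.3% for Tyr, 44.1% for Oca2, 49.7% for Mc1r, 63.9% for Slc24a5 and 79.6% for Gpr143. The median was 34.9%, beside 55.4% over all tested genes and 37.2% over the 4109 of them with a mean of at least 50 CPM. Of the 10, 8 lay below the first of these medians and 5 below the second. Without 15C4 3 the median of the 10 was 20.6%. The medians of 55.4% and 37.2% are over all 6 libraries and are no background for that value.

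The test of treatment passed no pigment gene. edgeR, DESeq2 and limma-voom each called 0 of 10 at an adjusted p under 0.05 and found 0 of 10 at an unadjusted p under 0.05. Over all 11144 tested genes edgeR called 0%, with 2.58% at an unadjusted p under 0.05, DESeq2 called 0.206% and limma-voom 0%. Of the 10 genes, 6 were fitted above 0 and 4 below, with a median log2 fold change of 0.20, beside 0.01 over all tested genes. With library totals alone as the scale, 5 were above and 5 below (median 0.09). The authors' deposited table, whose log2 fold change is IgG over 15C4, gave values from -1.04 for Gpr143 to 0.43 for Mc1r, with deposited adjusted p-values of 0.550 and 0.957 for them.

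**Figure D4:**
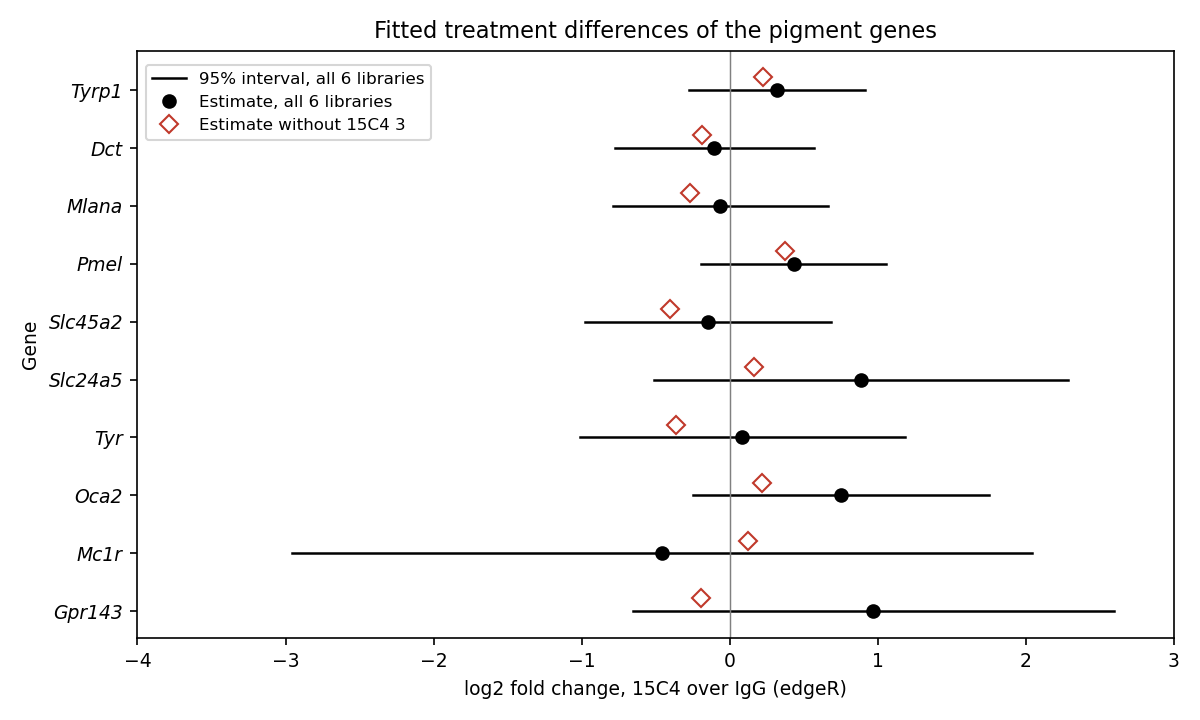
Fitted log2 fold change, 15C4 over IgG, for each gene with its 95% interval (black, all 6 libraries) and the estimate without 15C4 3 (red open diamonds). Every interval includes 0, and the estimates of Gpr143, Mc1r and Tyr change sign without 15C4 3.

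Other genes of the pathway were read from 7 lists of 67 genes, of which 65 were in the counts and 57 were tested. edgeR called 0 of 57 in either direction and found 2 at an unadjusted p under 0.05, Ddt and Slc24a4, beside 2.58% of all tested genes. DESeq2 called 0 with the same 2 at the unadjusted threshold, beside 4.08% of all tested genes. limma-voom called 0 with 3, the third being Kit, named after its value was seen, beside 4.14%. Of the 57, 33 were fitted above 0 and 24 below, with a median of 0.09. Over all 11144 tested genes, 5649 were above 0 and 5495 below, with a median of 0.01, or -0.07 with library totals alone as the scale. Signs by list below are those of the edgeR fit with TMM scaling, and no list was tested as a set. Genes named below for the smallest p in a list were picked on these same data. The shares of tested genes set beside them are therefore no test. Others separated in CPM without being named by that rule, such as Rab32 (all 15C4 libraries above) and Mgrn1 (all below). All fold changes below are log2, 15C4 over IgG, unless called linear. Means are CPM scaled by TMM factors, 15C4 first (SD, n = 3 per group).

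Of the 8 tested transcription factors and receptors of melanocytes, 7 were fitted above 0 (median 0.37). Mitf, the master regulator of the lineage, was at 1410, 1101 and 370 CPM in 15C4 and at 1068, 857 and 509 CPM in IgG (0.29, SE 0.47), so that 15C4 3 was its lowest library. Trpm1, a channel gene activated by MITF, was at 333 ± 23.0 against 221 ± 25.7 (0.59, SE 0.29). In CPM all 3 15C4 libraries of Trpm1, picked by its p, lay above all 3 IgG libraries, as in 2.88% of tested genes. Creb1, which acts downstream of MC1R signalling, was at 104 ± 81.1 against 160 ± 27.8 (-0.61, SE 0.65), with 20.5 CPM in 15C4 3. Of the melanocortin genes, 3 of 3 tested were below 0 (median -0.52), among them Atrn (attractin), at 85.7 ± 20.3 against 115 ± 42.3 (-0.42, SE 0.43).

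Genes that build and move melanosomes lay on both sides of 0. Of the 22 tested biogenesis genes, 16 were above 0 (median 0.35). Rab38, which brings Tyr and Tyrp1 to the melanosome, was the most abundant per length, at 390 ± 186 against 327 ± 90.8 (0.25, SE 0.41). Rab9 was at 67.1, 67.9 and 70.2 CPM in 15C4 and at 34.4, 31.7 and 51.8 CPM in IgG (0.89, SE 0.47). All 15C4 libraries of Rab9, picked by its p, lay above all its IgG libraries, as in 2.88% of tested genes. Lyst, the gene of beige mice, was at 86.3 ± 42.5 against 139 ± 47.6 (-0.69, SE 0.49). Of the 7 tested transport genes, 5 were above 0 (median 0.04), with Dynll1 at 483 ± 145 against 437 ± 85.3 (0.14, SE 0.33). The motor gene Myo5a was at 1270 ± 538 against 924 ± 53.2 (0.46, SE 0.36). Mlph, its melanosome adaptor, was fitted at -0.13 (SE 0.62), with 21.1 CPM in 15C4 3 and 85.4 to 145 CPM elsewhere.

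Among the 6 genes linked to PMEL fibrils, 5 were below 0 (median -0.09). Cd63, a tetraspanin that sorts PMEL, was at 1679 ± 973 against 1730 ± 738 (-0.04, SE 0.47), Gpnmb, a PMEL relative, at 743 ± 162 against 1127 ± 460 (-0.60, SE 0.39) and Psen2 at 92.0 ± 46.0 against 86.2 ± 14.8 (0.09, SE 0.48). Of the 7 tested transport genes for ions, copper and cystine, 3 were above 0 (median -0.02). Atox1, a copper chaperone, was at 132 ± 51.1 against 165 ± 24.9 (-0.32, SE 0.39). Slc7a11, the cystine transporter, was at 33.6 CPM in 15C4 1 and at most 4.44 CPM elsewhere (3.02, SE 2.29), and its fold change was 0.59 without 15C4 1 and 6.93 without IgG 1. For Slc24a4, a sodium, calcium and potassium exchanger, the 15C4 libraries summed to 1 count and the IgG libraries to 87, of which 63 were in IgG 2. Per library total, IgG was 113 times higher (95% counting interval of 19.7 to 4509), and 49.0 times higher without IgG 2 (7.98 to 2014). These intervals leave out the spread between libraries, and edgeR's adjusted p, which takes it in, was 1.00.

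Of the 4 tested enzymes outside the tyrosinase family, 1 was above 0 (median -0.28). Ddt, which encodes D-dopachrome decarboxylase, was at 43.6, 87.6 and 90.9 CPM in 15C4 and at 38.8, 15.1 and 31.0 CPM in IgG. All 15C4 libraries of Ddt, picked by its p, lay above all its IgG libraries, as in 2.88% of tested genes. The fitted linear fold change of Ddt, not its log2, was 2.83 (edgeR adjusted p = 1.00). The SE of its log2 value was 0.60. Mif, a relative of Ddt, was at 690 ± 22.2 against 901 ± 302 (-0.39, SE 0.32), with its highest value, 1274 CPM, in IgG 3. In CPM all 15C4 libraries of Mif lay below all its IgG libraries, as for Slc24a4 and as in 6.64% of tested genes.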

How the data were processed

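For each of the 6 libraries the authors deposited one table of raw counts, a whole number for every gene symbol. Per the labels' protocols, cDNA was amplified by PCR before Nextera XT library preparation. The submitters' processing notes name STAR 2.5b, fastp, featureCounts and DESeq2 as tools and mm10 and mm9 as builds, without roles. Neither the annotation nor the strand setting is given in the sources used here. A table of the series, deposited by the authors, held equal raw counts for the 24394 symbols spelled alike. It also holds the authors' normalised values, treated as a score because their scaling is not described and not used here, and the authors' log2 fold change and p-value for each gene, raw and adjusted.

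CPM is of all counts. TPM was computed over merged exons of GENCODE M21, which held 23384 of the 24421 symbols. Counts, filtered with filterByExpr (minimum count 10, total 15) and scaled by TMM, went into edgeR's quasi-likelihood test (edgeR 4.0.16, R 4.3.3). Treatment was the only term, and p was adjusted by Benjamini-Hochberg with a threshold of 0.05. The SE is the absolute log2 fold change over the square root of F. Alternatives were DESeq2 1.42.0, limma-voom (limma 3.58.1), other scalings and filters, a replicate block and leaving out libraries. The tests were run on simulated data with planted changes larger than those fitted for the 10 pigment genes, so smaller changes were not checked.

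All 10 pigment genes are named. From each other pigment list the tested gene with the highest mean TPM and that with the smallest unadjusted p in each direction are named, and from each cell type list the gene with the highest mean CPM. Members and lists were chosen with earlier results of these data known. The labels describe no molecular identifiers, so PCR copies are counted as if independent, and intervals on counts take in no error beyond counting.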

Additional observations from a re-analysis of the deposited data

How the results depend on the processing

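For the 10 pigment genes, 127 of 140 fold changes under other settings kept their sign, none of the 140 passed (smallest adjusted p 0.846), and the count of genes called was 0 under each. The cause of the changes of sign was not tested. Over the fits that leave out 1 library, the log2 fold change ran from -0.36 to 0.64 for Tyr, -0.23 to 0.078 for Dct, -0.27 to 0.13 for Mlana, -0.40 to 0.12 for Slc45a2, -0.19 to 1.37 for Gpr143 and -0.91 to 0.13 for Mc1r. It stayed above 0 for Tyrp1 (0.23 to 0.39), Pmel (0.33 to 0.56), Slc24a5 (0.17 to 1.34) and Oca2 (0.22 to 1.06). Without the third library of each group, an alternative added after the data were seen, it was -0.35 for Gpr143 and 0.047 for Mc1r, and with library totals alone -0.035 for Tyr.

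The difference in summed pigment CPM, 15C4 minus IgG, was -142. It was 1560 with TMM-scaled CPM and 371 without Dct and Tyrp1 in the sum, and 0.116 percentage points as a share of TPM. It ran from -1428 to 1207 with 1 library left out, 866 without IgG 1 and 134 without IgG 2 among them. The number of genes whose shares did not overlap, 1 in all, ran from 1 to 4 with 1 library left out, where fewer samples are compared. The median coefficient of variation, 34.9%, ran from 20.6% to 37.1% with 1 library left out, settings added after the data were seen.

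The correlation of same-numbered deviations was -0.04, 0.06 and 0.10, and that of differently numbered ones lay between -0.10 and 0.07. With 3 libraries per group, these values cannot settle whether the replicate numbers mark pairs. With a replicate block the summed difference was again -142 (exact p = 1). It could not change, because each number has 1 library per group, and 3 pairs allow no small exact p. The edgeR fit with the block called 0 pigment genes and 0 of the other lists, as without it. In that block fit the fold change was -1.40 for Mc1r and -0.022 for Psen2.

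Of 250 fold changes of the other named genes, 14 turned sign and none passed. Over fits without 1 library they ran from -0.0052 to 0.67 for Mitf, -0.21 to 0.53 for Rab38, -0.13 to 0.31 for Dynll1, -0.49 to 0.33 for Mlph, -0.63 to 0.38 for Cd63 and -0.32 to 0.42 for Psen2. Psen2 was also -0.0086 with library totals, -0.21 by limma-voom and -0.19 without the third libraries, where Mlph was 0.19. Low counts limit Slc24a4 and Slc7a11, at 0 to 2 counts in several libraries.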
